A study of Mus musculus with 2 samples.

Results

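Adipogenic lineage genes were examined in mouse embryonic fibroblasts (MEFs) labelled Dnmt1+/+ and Dnmt1-/-, after the gene of the maintenance DNA methyltransferase. The set holds 10 genes listed by name, with earlier results of these data known. They are the transcription factors Pparg, Cebpa, Cebpb, Cebpd and Zfp423, and the genes Fabp4, Lpl, Cd36, Plin1 and Adipoq, whose proteins handle lipid or are secreted by fat cells. All 10 were found, each as 1 of the 29126 entries of the deposited table. The study asked how loss of DNA methylation alters transcription in somatic cells, and strand-specific mRNA-seq was run on 1 Dnmt1+/+ library and 1 Dnmt1-/- library of MEFs. The cells called Dnmt1-/- are homozygous for a hypomorphic Dnmt1 allele, and the cells of both genotypes lack p53. The strain of both lines is labelled as unknown, both were grown in standard culture, and no adipogenic treatment is named for either.

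Adipogenesis is the path by which mesenchymal progenitors, embryonic fibroblasts among them, become fat cells. In the classical scheme C/EBP-beta and C/EBP-delta are induced early and lead to expression of PPAR-gamma and C/EBP-alpha, which maintain each other and switch on the genes of the mature adipocyte. Zfp423 marks committed preadipocytes, and the late genes serve fatty acid release (Lpl), uptake (Cd36), intracellular transport (Fabp4), droplet coating (Plin1) and hormone secretion (Adipoq).

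Values are RPKM, read numbers scaled by transcript length and by mapped reads, so levels can be compared between genes. The log2 difference between the libraries is log2(RPKM + 0.1) in Dnmt1-/- minus the same in Dnmt1+/+, and the added 0.1 makes differences of low genes look smaller. A gene was kept if Cuffdiff gave it the status OK, it had a symbol and at least one of its 2 values was 1 RPKM or more. A low gene can thus be kept through 1 library alone, the one in which it was higher. With 1 library per genotype there was no spread between replicates and no test, so a difference describes these 2 libraries only, and a count past 2-fold is read against the share of all genes past 2-fold. Of the 11244 genes kept, 8.47% were higher in Dnmt1-/- MEFs by more than 2-fold and 10.9% were lower by more than 2-fold, and their median log2 difference was -0.14 (quartiles -0.56 and 0.27). Dnmt1 itself was at 65.2 RPKM in Dnmt1+/+ and 14.5 RPKM in Dnmt1-/- MEFs, a log2 difference of -2.16. The fibroblast label was checked on 10 markers, of which 9 were kept, with a summed level of 6892 RPKM in Dnmt1+/+ and 4618 RPKM in Dnmt1-/- MEFs. Of these markers 3 were more than 2-fold lower in Dnmt1-/-, Col1a2, Fn1 and Thy1, and none was more than 2-fold higher. Lum stayed below 1 RPKM in both libraries.

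Pparg and Fabp4 were higher in Dnmt1-/- MEFs, Lpl and Zfp423 were lower there from a level already below 1 RPKM, the 3 C/EBP genes differed by less than 2-fold, and Cd36, Plin1 and Adipoq were at or next to 0 in both libraries. Thus 5 of the 10 genes were kept, Pparg, Cebpa, Cebpb, Cebpd and Fabp4. Of the other 5, Zfp423 and Lpl had the status OK but stayed under 1 RPKM in both libraries, and Cd36, Plin1 and Adipoq had the status NOTEST. Of the 5 genes kept, 2 were higher by more than 2-fold and 0 were lower by that much. Fabp4 reached the minimum in Dnmt1-/- MEFs alone, Cebpa reached it in Dnmt1+/+ MEFs alone, and the other 3 reached it in both. When the 7 genes with status OK were taken with no minimum RPKM, 2 were higher and 2 lower, beside 9.92% and 11.1% of the 14865 entries treated the same way. The counts were not tested against the shares of all genes.

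**Figure D1:**
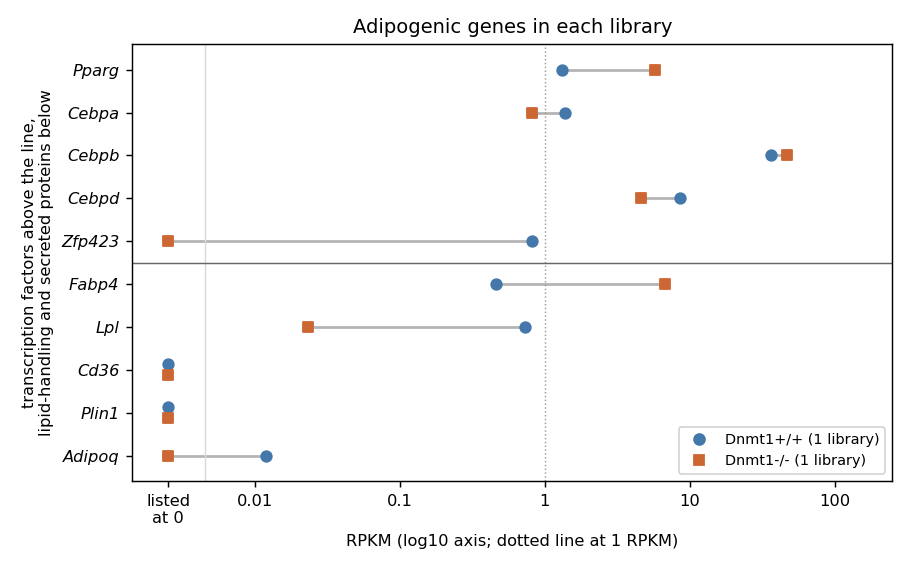
RPKM of the 10 adipogenic genes in the Dnmt1+/+ library (blue circles) and the Dnmt1-/- library (orange squares) on a log10 axis, with values of 0 placed at the left. The orange square lies to the right for Pparg (5.79 against 1.30 RPKM), Fabp4 (6.74 against 0.459) and Cebpb (47.0 against 36.5), and far to the left for Lpl (0.0230 against 0.726) and Zfp423 (0 against 0.815).

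Among the early regulators, Cebpb had the highest level of the 10 genes in both libraries. Cebpb encodes a basic leucine zipper factor that acts at the onset of adipogenesis and also in inflammatory and stress responses. It is a gene of 1 exon on the plus strand of chromosome 2 (167514415 to 167515918, mm9). Its level was 36.5 RPKM in Dnmt1+/+ and 47.0 RPKM in Dnmt1-/- MEFs, a log2 difference of 0.37. In these libraries it lay above 85.8% and 89.1% of the entries with status OK and a symbol, whose median levels were 6.36 and 5.63 RPKM.

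Cebpd, the partner of Cebpb in the early wave, had the next highest level in Dnmt1+/+ MEFs, 8.52 RPKM, and 4.57 RPKM in Dnmt1-/- MEFs. The log2 difference of -0.88 is just inside 2-fold. This value is uncertain, because the entry spans 259591 bp of chromosome 16 (15887336 to 16146926) and shares that span with 2310008H04Rik, a gene on the opposite strand that was at 13.0 and 14.3 RPKM. The GENCODE vM1 annotation places Cebpd at 15887379 to 15888559 on the plus strand and types it as a pseudogene, and it is not stated whether the reads were assigned to genes by strand.

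Cebpa, the late C/EBP factor that cooperates with PPAR-gamma on adipocyte genes, was low in both libraries. It is a gene of 1 exon on the plus strand of chromosome 7 (35904312 to 35906951). Its level was 1.38 RPKM in Dnmt1+/+ and 0.817 RPKM in Dnmt1-/- MEFs, a log2 difference of -0.69, and so it was lower in the library in which Pparg was higher.

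Pparg encodes the nuclear receptor PPAR-gamma, the central activator of fat cell genes. It lies on the plus strand of chromosome 6 (115311087 to 115440419). Its level was 1.30 RPKM in Dnmt1+/+ and 5.79 RPKM in Dnmt1-/- MEFs, which is 4.44-fold higher and a log2 difference of 2.07. It was above 30.0% of the entries with status OK in the first library and above 50.5% in the second, so a gene in the lower part of the range came to lie near the middle. Of the 11244 genes kept, 475 had a higher log2 difference.

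Zfp423, a zinc finger factor of committed preadipocytes, lies on the minus strand of chromosome 8 (90185709 to 90483494). It was at 0.815 RPKM in Dnmt1+/+ MEFs and was listed at 0 in Dnmt1-/- MEFs, so no fold is given. Its close relative Zfp521, known to oppose Zfp423 in the preadipocyte, was at 3.38 RPKM in Dnmt1+/+ and 1.47 RPKM in Dnmt1-/- MEFs, a log2 difference of -1.15. Both genes of this pair had their lower value in Dnmt1-/- MEFs.

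Fabp4, also called aP2, encodes a small cytoplasmic protein that carries fatty acids, and had the largest difference of the genes kept in the set. It has 4 exons on the minus strand of chromosome 3 (10204343 to 10208576). Its level was 0.459 RPKM in Dnmt1+/+ and 6.74 RPKM in Dnmt1-/- MEFs, which is 14.7-fold higher and a log2 difference of 3.61. Of the genes kept, 219 had a higher log2 difference. In Dnmt1-/- MEFs it had the second highest level of the 10 genes, after Cebpb and before Pparg, and in Dnmt1+/+ MEFs the lowest of the 7 genes with status OK.

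Lpl encodes lipoprotein lipase, which frees fatty acids from circulating triglycerides. On the plus strand of chromosome 8 (71404454 to 71430831), it was at 0.726 RPKM in Dnmt1+/+ and 0.0230 RPKM in Dnmt1-/- MEFs, a log2 difference of -2.75. The ratio of the RPKM values was 31.6-fold, and both values are below 1 RPKM. Fabp4 and Lpl, both known targets of PPAR-gamma, thus had differences of opposite sign.

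The remaining genes of the set were at or next to 0. Cd36, a fatty acid transporter on the minus strand of chromosome 5 (17287508 to 17394777), was listed at 0 in both libraries. Plin1, which coats the lipid droplet of adipocytes, on the minus strand of chromosome 7 (86866050 to 86877662), was likewise listed at 0 in both. Adipoq, the gene of the hormone adiponectin on the plus strand of chromosome 16 (23146609 to 23158041), was at 0.0119 RPKM in Dnmt1+/+ and listed at 0 in Dnmt1-/- MEFs. Of 6 adipocyte markers, Adipoq, Plin1, Cidec, Lep, Cfd and Retn, 4 were listed at 0 in both libraries and 0 were above 0 in Dnmt1-/- MEFs. The highest value among them was 0.0264 RPKM, of Lep in Dnmt1+/+ MEFs. Of the 18 genes kept from a wider list of 31 adipocyte products, 3 were past 2-fold higher in Dnmt1-/- MEFs, namely Plin4, Angptl4 and Slc27a1. Another 5 were past 2-fold lower, namely Lpin1, Dgat2, Scd1, Fabp5 and Acsl1. Plin4 and Angptl4 reached the minimum RPKM in Dnmt1-/- MEFs alone, and Lpin1 and Dgat2 in Dnmt1+/+ MEFs alone. Over all genes kept, 8.47% were past 2-fold higher and 10.9% lower, and the counts were not tested against these shares.

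Fabp4 and Pparg are also known from macrophages, and Fabp4 from capillary endothelium, so the markers of other cell types were read in the same libraries. The summed level of 10 macrophage markers was 0.715 RPKM in Dnmt1+/+ and 9.95 RPKM in Dnmt1-/- MEFs. Nearly all of this came from Csf1r, the receptor for macrophage colony-stimulating factor, at 0.0702 and 6.08 RPKM, and Cd68, a lysosomal glycoprotein, at 0.596 and 3.63 RPKM. The other 8 were below 1 RPKM in both libraries. Of these, Ptprc, Adgre1 and Tyrobp were listed at 0 in both. Itgam, Lyz2, Aif1 and Mrc1 had their higher value in Dnmt1-/- MEFs, and Cx3cr1 had its lower value there. The summed level of 10 endothelial markers was 5.81 and 6.33 RPKM, of which Egfl7 made up 5.23 and 5.58 RPKM. Tie1 and Cldn5 were listed at 0 in both. Pecam1, Cdh5 and Kdr had their higher value in Dnmt1-/- MEFs, and Tek, Emcn, Vwf and Esam had their lower value there. The 7 of 8 epithelial markers found summed to 0.363 RPKM in Dnmt1+/+ and 2.19 RPKM in Dnmt1-/- MEFs, where Krt14 was at 1.46 RPKM. The part of other cell types in the Fabp4 and Pparg values was not tested, and in bulk RNA a change in the number of cells of a type and a change in RNA per cell cannot be told apart.

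**Figure D2:**
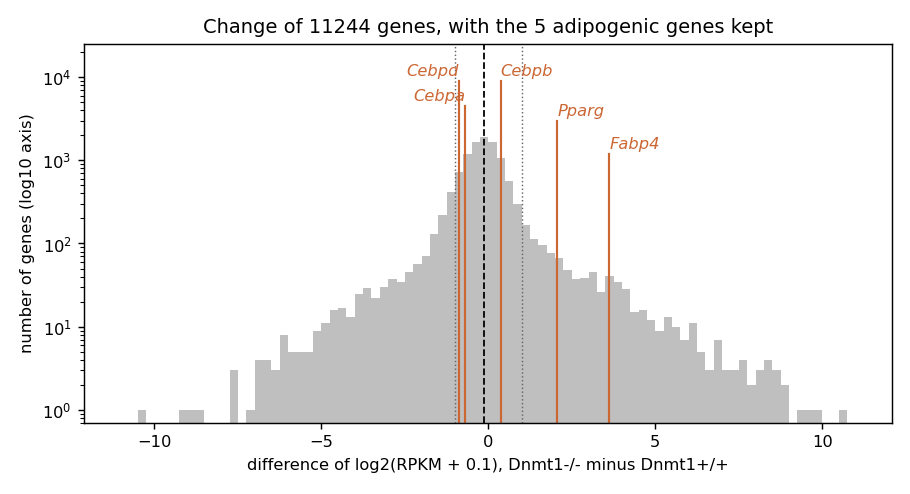
Histogram of the difference of log2(RPKM + 0.1), Dnmt1-/- minus Dnmt1+/+, over the 11244 genes kept, with the number of genes on a log10 axis, the median (-0.14) dashed and 2-fold in each direction dotted. Orange lines mark the 5 adipogenic genes kept: Cebpd (-0.88), Cebpa (-0.69) and Cebpb (0.37) lie within 2-fold, and Pparg (2.07) and Fabp4 (3.61) lie in the upper tail.

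As Dnmt1 methylates cytosine in CG dinucleotides, the CG content of the promoters was read from the RefSeq promoter table, whose coordinates are in GRCm38.p6 and not in the mm9 build of the expression table. The table gives 300 bases per start, 250 before it and 50 after it, for 32841 starts, and holds 10 starts of 7 of the 10 genes. Fabp4, Lpl and Cebpd are not in it. The 250 bases before the start are shown for 4 of the starts, with every CG in capitals, to set the CG-dense promoters of the set beside its CG-poor ones. The first and the last of 3 Pparg starts are shown because one gene holds both kinds, Cebpb as the most CG-dense and Adipoq as the start with no CG.
Pparg, first start: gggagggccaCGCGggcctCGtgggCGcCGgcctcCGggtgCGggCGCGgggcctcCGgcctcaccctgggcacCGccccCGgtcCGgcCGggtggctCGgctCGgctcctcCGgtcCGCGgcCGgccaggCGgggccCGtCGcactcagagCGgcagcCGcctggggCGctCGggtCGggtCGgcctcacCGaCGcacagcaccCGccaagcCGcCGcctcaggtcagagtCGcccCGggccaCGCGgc
Pparg, last start: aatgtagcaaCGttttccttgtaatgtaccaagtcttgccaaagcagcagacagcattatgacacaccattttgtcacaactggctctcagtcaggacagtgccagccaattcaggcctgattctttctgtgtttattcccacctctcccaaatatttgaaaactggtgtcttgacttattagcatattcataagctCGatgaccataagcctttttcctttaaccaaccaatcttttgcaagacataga
Cebpb: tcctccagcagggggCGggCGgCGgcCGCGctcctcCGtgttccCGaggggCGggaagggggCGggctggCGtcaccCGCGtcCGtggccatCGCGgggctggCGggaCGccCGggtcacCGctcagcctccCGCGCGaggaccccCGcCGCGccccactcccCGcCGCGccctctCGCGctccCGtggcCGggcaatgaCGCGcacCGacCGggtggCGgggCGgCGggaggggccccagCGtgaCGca
Adipoq: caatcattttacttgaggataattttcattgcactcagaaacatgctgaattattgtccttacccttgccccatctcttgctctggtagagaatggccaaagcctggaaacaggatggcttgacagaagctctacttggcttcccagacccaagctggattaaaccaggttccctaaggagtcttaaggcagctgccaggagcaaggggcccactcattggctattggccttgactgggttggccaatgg

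All 4 are on the plus strand of GRCm38.p6. They lie at chr6:115360894-115361143 (Pparg, first start), chr6:115421816-115422065 (Pparg, last start), chr2:167688665-167688914 (Cebpb) and chr16:23146286-23146535 (Adipoq). The stretches shown hold 38, 2, 41 and 0 CG. Over the whole 300 bases the ratio of observed to expected CG, the count of CG divided by the count that the C and G content would give, was 0.910 at the first and 0.170 at the last Pparg start. It was thus above 88.1% of all promoters at one start of Pparg and above 24.1% at the other, and at the middle start it was 0.467. The ratio was 1.03 for Cebpb and 0.853 for Cebpa, 0.217 for Cd36, 0.0862 for Plin1 and 0 for Adipoq, beside a median of 0.384 over all promoters. Zfp423 had starts of both kinds, with ratios of 0.685 and 0.227.

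The 3 genes listed at or next to 0 in both libraries, Cd36, Plin1 and Adipoq, had ratios below the median, and Cebpb, the gene with the highest level, had the highest ratio. Level and ratio did not go together throughout, since Cebpa, with 1.38 and 0.817 RPKM, had a ratio above 83.5% of all promoters, and Zfp423, listed at 0 in Dnmt1-/- MEFs, had a start with a ratio above 69.9%. The RPKM is 1 value per gene, so the levels from the 3 Pparg starts could not be separated. The letters TTGCNNAA, which resemble a C/EBP site, were searched on both strands and were found in 10.8% of all promoters and in 3 of the 10 promoters of the set, those of the last Pparg start, the first Zfp423 start and Plin1. At the last Pparg start they lie 215 to 208 and 16 to 9 bases before the start. The PPAR response element, searched as a direct repeat of AGGTCA with 1 base of any kind between the copies, was found in 0.0396% of all promoters and in 0 of the 10.

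The relatives of these genes were read family by family. Over all genes kept, 8.47% were past 2-fold higher and 10.9% past 2-fold lower. The counts within families were not tested against these shares. Of the 7 genes listed as C/EBP, 6 were kept and 0 were past 2-fold, with a median log2 difference of -0.57. Cebpz, at 44.6 RPKM in Dnmt1+/+ and 40.5 RPKM in Dnmt1-/- MEFs, enters this count and median. Whether Cebpz is a basic leucine zipper factor like Cebpb was not examined. Ddit3, a stress-induced inhibitor of the other C/EBP proteins, had the highest level of the family, with 131.8 and 96.9 RPKM in Dnmt1+/+ and Dnmt1-/- MEFs. Cebpg was at 20.7 and 11.6 RPKM, and Cebpe was listed at 0 and at 0.0216 RPKM. Cebpb was the C/EBP gene kept whose value was higher in Dnmt1-/-.

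Among the receptors of the PPAR and RXR families, Pparg was past 2-fold and the other 3 kept were not. This count was not tested against the shares of all genes either. Ppard, the widely expressed PPAR, was at 12.0 RPKM in Dnmt1+/+ and 9.72 RPKM in Dnmt1-/- MEFs, and so remained above Pparg in both. Ppara was at 0.175 RPKM and listed at 0. Rxra, the usual partner of PPAR-gamma on DNA, was at 22.4 and 11.2 RPKM, a log2 difference of -0.99, just inside 2-fold. Rxrb was at 21.4 and 14.9 RPKM, and Rxrg was listed at 0 in both.

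The fatty acid-binding proteins differed in sign. Fabp3, the heart form, was at 0.550 RPKM in Dnmt1+/+ and 1.81 RPKM in Dnmt1-/- MEFs, a log2 difference of 1.56 on the same side as Fabp4. Fabp5, the epidermal form, was at 126.5 and 28.2 RPKM, a log2 difference of -2.16, and remained the most abundant of the 9 genes in both libraries. The summed level of the family was 127.5 RPKM in Dnmt1+/+ and 36.8 RPKM in Dnmt1-/- MEFs, and Fabp4 supplied 0.459 and 6.74 RPKM of it. Another 5 members were listed at 0 in both, among them Fabp9 and Fabp12, the genes that flank Fabp4 on chromosome 3. Reads that fit more than one of these similar genes could shift their values.

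Of the 5 perilipins, which coat lipid droplets, the widely expressed Plin2 and Plin3 were the abundant ones. Plin2 was at 49.5 and 46.0 RPKM in Dnmt1+/+ and Dnmt1-/- MEFs, and Plin3 at 54.6 and 37.0 RPKM. Plin4, which is prominent in white fat, was at 0.339 and 2.17 RPKM, a log2 difference of 2.37, whereas Plin1 was listed at 0 in both. Among the 4 lipases of the Lpl family, the endothelial lipase Lipg was the one kept, at 1.66 and 0.547 RPKM (log2 difference -1.44), lower in Dnmt1-/- as Lpl was. The relatives of Cd36 differed little, with Scarb1, the receptor for high-density lipoprotein, at 31.5 and 31.0 RPKM and the lysosomal Scarb2 at 14.3 and 13.7 RPKM.

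**Figure D3:**
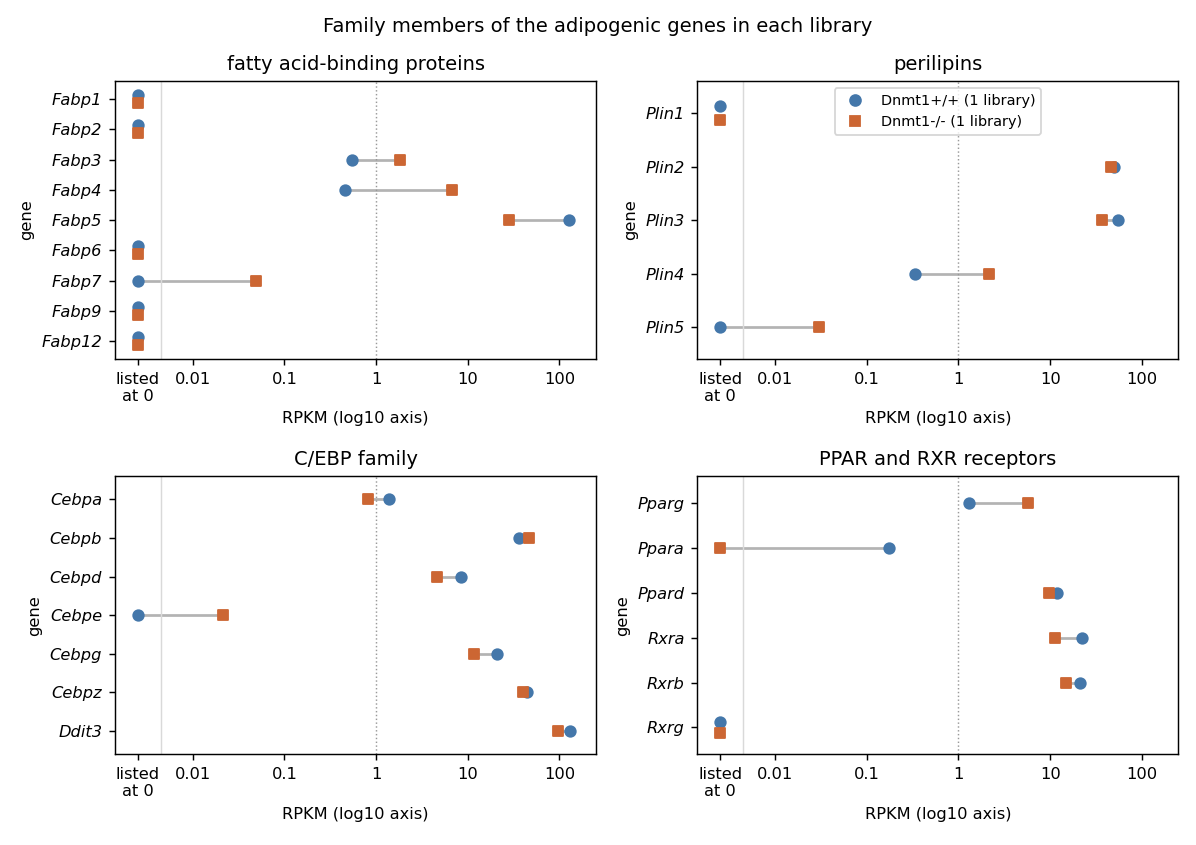
RPKM of the fatty acid-binding protein, perilipin, C/EBP and PPAR/RXR genes in the Dnmt1+/+ library (blue circles) and the Dnmt1-/- library (orange squares) on log10 axes, with values of 0 at the left. The widely expressed relatives Fabp5, Plin2, Plin3 and Ppard lie above Fabp4, Plin1 and Pparg in both libraries, and Fabp5 (126.5 to 28.2 RPKM) and Fabp4 (0.459 to 6.74 RPKM) lie in opposite directions.

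Other factors known to promote adipogenesis were read from a list of 18 genes, of which 11 were kept. Of these, 2 were past 2-fold higher and 2 past 2-fold lower, and the median log2 difference was 0.17. Klf5, which C/EBP factors induce and which acts on the Pparg promoter, was at 1.77 and 7.70 RPKM, a log2 difference of 2.06. Ebf1, which acts upstream of Pparg and Cebpa, was at 2.55 and 8.14 RPKM, a log2 difference of 1.64. Both of these thus stood on the same side as Pparg. On the other side were Zfp467, at 4.66 and 0.509 RPKM (log2 difference -2.97), and Creb1, which induces Cebpb in the classical scheme, at 7.91 and 3.57 RPKM (-1.13). Stat5a was at 3.48 and 7.04 RPKM, just inside 2-fold. Of the 7 genes not kept, Ebf2 was at 0.676 RPKM in Dnmt1+/+ and listed at 0 in Dnmt1-/- MEFs, and Klf15 was at 0.365 and 0.0131 RPKM.

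A list of 16 factors drawn up as opposing adipogenesis gave 18 entries, all of them kept. Of these, 5 were past 2-fold higher and 3 past 2-fold lower, with a median log2 difference of 0.42. Dlk1, known as preadipocyte factor Pref-1 and an imprinted gene, had the largest difference, with 7.45 RPKM in Dnmt1+/+ and 0.405 RPKM in Dnmt1-/- MEFs (log2 difference -3.90). Sirt1, a deacetylase that represses PPAR-gamma, was at 9.65 and 3.79 RPKM (-1.33), and Zfp521 was the other gene that was lower. Gata2, which holds cells at the preadipocyte stage, was at 1.28 and 4.41 RPKM (1.71), and Klf2, a repressor of Pparg, at 5.15 and 14.9 RPKM (1.52). The other 3 of the 5 entries that were higher are all of Wnt5b, with log2 differences of 2.87, 2.76 and 2.10 at 1 shared locus. The 5 entries thus stand for 3 genes. How Wnt5b acts in adipogenesis was not examined, and its 3 entries enter both the count and the median of the list.

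Among 31 genes of adipocyte products, 18 were kept, of which 3 were past 2-fold higher and 5 past 2-fold lower, with a median log2 difference of -0.40. Angptl4, a secreted inhibitor of lipoprotein lipase and a PPAR target, had the largest difference, with 0.355 RPKM in Dnmt1+/+ and 13.6 RPKM in Dnmt1-/- MEFs (4.92). Plin4 and the fatty acid transporter Slc27a1, at 8.99 and 24.8 RPKM (1.45), were the other genes that were higher. The 5 genes that were lower were Lpin1, which makes diacylglycerol, at 2.65 and 0.459 RPKM (-2.30), Dgat2, which makes triglyceride from it, at 2.10 and 0.440 RPKM (-2.02), and the desaturase Scd1 at 58.9 and 17.5 RPKM (-1.75), together with Fabp5 and Acsl1. Other enzymes of lipid synthesis were within 2-fold, among them Fasn at 46.6 and 30.1 RPKM, Acaca at 10.8 and 7.49 RPKM, Dgat1 at 8.69 and 6.85 RPKM and Agpat2 at 16.2 and 19.7 RPKM. Angptl4 and Plin4 reached the minimum RPKM in Dnmt1-/- MEFs alone, and Lpin1 and Dgat2 reached it in Dnmt1+/+ MEFs alone. Another 6 genes of the list were at 0 in both libraries.

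Surface genes of mesenchymal progenitors and preadipocytes, 9 of 10 of which were found, were kept in 5 cases. Cd34 was at 13.0 RPKM in Dnmt1+/+ and 0.0917 RPKM in Dnmt1-/- MEFs (-6.10), and Thy1, also one of the fibroblast markers above, was at 4.84 and 0.129 RPKM (-4.43). Pdgfra, the receptor that marks adipocyte progenitors, was at 6.95 and 18.7 RPKM (1.41), and the remaining 2 genes kept, Pdgfrb and Cd24a, were within 2-fold. Each list thus held genes on both sides of 2-fold. Over all genes kept, 8.47% were past 2-fold higher and 10.9% past 2-fold lower. The list counts were not tested against these shares.

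**Figure D4:**
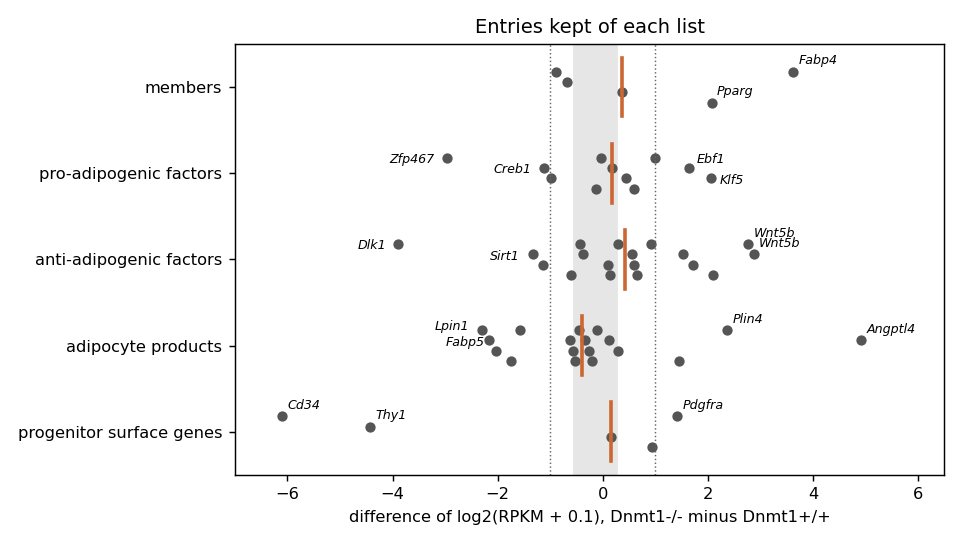
Difference of log2(RPKM + 0.1), Dnmt1-/- minus Dnmt1+/+, for each entry kept of the 10 adipogenic genes and of 4 lists, with the list median as an orange bar, 2-fold dotted and the quartiles of all genes kept (-0.56 and 0.27) shaded. Each of the 4 lists has entries beyond 2-fold on both sides, with the extremes at Cd34 (-6.10) and Angptl4 (4.92), and the 5 adipogenic genes kept lie beyond 2-fold on the higher side with Pparg and Fabp4 alone.

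The genes around the 10 loci were read to see whether the differences extended over a region. Within 500 kb, 73 genes kept were found, of which 4 were past 2-fold higher and 5 past 2-fold lower. Over all genes kept the shares were 8.47% and 10.9%, and the counts were not tested against them. The 10 neighbours of Pparg were all within 2-fold, as were the 8 of Cebpa and the 8 of Cebpd. Fabp4 had 4 such neighbours, of which Fabp5, 187.7 kb away, was past 2-fold in the opposite direction. Lpl had 5, of which Zfp930 (log2 difference -1.01) and Gm10033 (-1.28) were lower, as Lpl was. Beside Cd36, Gnai1, the gene of an inhibitory G protein subunit 376.2 kb away, was at 62.1 RPKM in Dnmt1+/+ and 0.0317 RPKM in Dnmt1-/- MEFs (-8.88). Beside Plin1, 89.0 kb away, Anpep was at 1.49 and 0.221 RPKM (-2.31). The genes that were higher were Ptgis near Cebpb (1.40), Adcy7 near Zfp423 (1.04) and Masp1 (1.38) and Rtp4 near Adipoq, the last of these barely past 2-fold and both given 1 shared locus. None of the 10 loci overlapped an entry without a symbol.

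**Figure D5:**
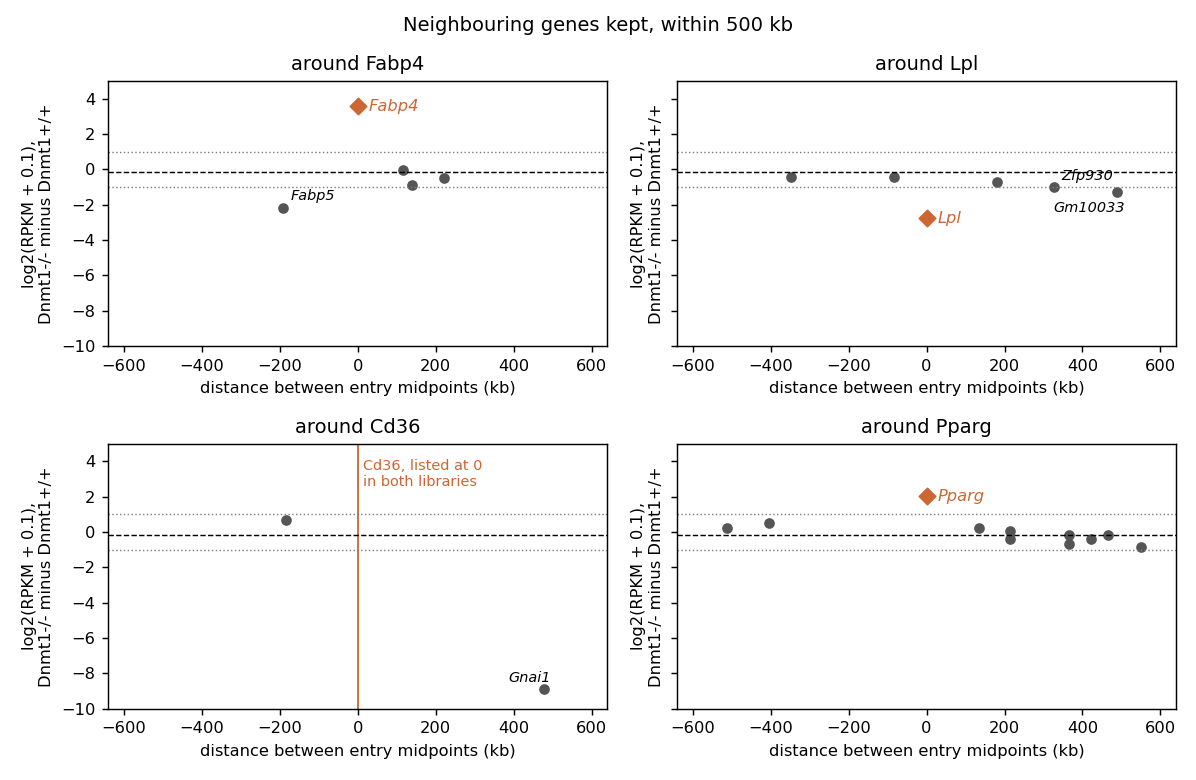
Difference of log2(RPKM + 0.1), Dnmt1-/- minus Dnmt1+/+, of the genes kept within 500 kb of Fabp4, Lpl, Cd36 and Pparg (grey), against the distance between the midpoints of the entries in kb, with the gene itself in orange, 2-fold dotted and the median of all genes (-0.14) dashed. Fabp4 (3.61) and Pparg (2.07) stand above neighbours that are all below 1 on this scale, and Gnai1 (-8.88) stands far below the other neighbour of Cd36.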

How the data were processed

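Messenger RNA of 1 Dnmt1+/+ and 1 Dnmt1-/- MEF library was sequenced with a strand-specific Illumina protocol as 50 bp single-end reads. Per the labels, Tophat alignments to mm9 were passed to Cufflinks and Cuffdiff, whose RPKM values the authors deposited as 1 column per library, beside a status for every entry. Program versions and any scaling beyond mapped reads are not given in the sources used here. The deposited table also holds fold changes and p-values of the authors' own comparison, which were not used.

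The columns named for wild-type and knock-out were matched to the genotypes by title. Differences were taken as log2(RPKM + 0.1), and genes were kept with status OK, a symbol and at least 1 RPKM in one library or the other. The values carry no read counts, so no interval is given and 0 is reported as listed at 0. A gene was called when past 2-fold. Whether a call would recur in other libraries was not tested.

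The members and gene lists were chosen with earlier results of these data known. All 10 members were named, and of each list up to 4 genes kept with the largest differences, relatives of members, Dnmt1, cell type markers, and neighbours past 2-fold. Rxra, Rxrb and Ppara were named as relatives. Genes named beyond this rule, Stat5a, Ebf2, Klf15, Sirt1, Dgat2, Scd1, Acsl1, Slc27a1, Dgat1, Agpat2, Fasn, Acaca, Lipe, Actb, Pdgfrb, Fabp9, Fabp12 and single markers other than the adipocyte ones, were named after their values were seen. Locus starts in the table count from 0 (after adding 1, 7052 of 19744 equalled the GENCODE vM1 start, and 537 as listed), so 1 was added. Calculations used Python 3.11.15, numpy 2.4.6 and pandas 2.3.3, and figures matplotlib 3.10.9. Of the alternatives, 9 were run: other pseudocounts (1, 0.01, none), no minimum RPKM, a minimum on the mean, subtraction of the median, a 1.5-fold threshold, any status and autosomes only.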

Additional observations from a re-analysis of the deposited data

How the results depend on the processing

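Over the 9 alternatives the log2 difference kept its direction for the 6 members with a value above 0 in both libraries. It ran from 1.56 to 2.21 for Pparg, 2.41 to 3.88 for Fabp4, 0.36 to 0.51 for Cebpb, -0.75 to -0.39 for Cebpa, -0.90 to -0.74 for Cebpd and -4.98 to -0.76 for Lpl, which was within 2-fold with a pseudocount of 1. The count of members that were lower, 0 in the report, was 2 with no minimum RPKM (Lpl and Zfp423) and 2 at 1.5-fold (Cebpa and Cebpd). The median of the members kept, 0.37, was -0.69 with no minimum RPKM. Over all genes, the 952 that were higher became 1475 with no minimum and 1580 at 1.5-fold, and the 1225 that were lower became 801 with a pseudocount of 1 and 2670 at 1.5-fold. Among pro-adipogenic factors, 4 instead of 2 were higher at 1.5-fold. With a pseudocount of 0.01, with none and with the median subtracted, 3 were higher, as Stat5a then passed 2-fold. The number that were lower, 2, was 1 with a pseudocount of 1, 5 with no minimum and 1 with the median subtracted. Among the factors drawn up as opposing adipogenesis, 8 instead of 5 entries were higher at 1.5-fold, with every entry of Wnt5b in both counts. No paired analysis was possible because there is 1 library per genotype, and no library could be left out. The RPKM values carry no read counts, which weighs most on the genes below 1 RPKM, and the number of cultures behind each library is not stated.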

Other observations

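Genes of 2 other mesenchymal lineages gave the following values. Of 16 myogenic genes, 5 were kept, of which 1 was more than 2-fold higher and 0 were lower in Dnmt1-/- MEFs, with a median log2 difference of 0.56. The gene that was higher was Myf5, a myogenic determination factor, at 0.106 RPKM in Dnmt1+/+ and 3.28 RPKM in Dnmt1-/- MEFs (4.04). Of 16 cartilage and bone genes, 6 were kept, of which 2 were higher and 1 was lower, with a median of 0.26. Comp, a cartilage matrix protein, was at 0.344 and 4.96 RPKM (3.51) and Sox5, a chondrogenic factor, at 0.332 and 1.58 RPKM (1.96), whereas Col2a1, the main cartilage collagen, was at 6.40 and 0.0661 RPKM (-5.29). Myf5, Comp and Sox5 reached the minimum RPKM in Dnmt1-/- MEFs alone, and Col2a1 reached it in Dnmt1+/+ MEFs alone. The genes not kept were 11 of 16 and 10 of 16, beside 5 of 10 in the adipogenic set. The differences between the lineages were not tested. Nor were their counts tested against the 8.47% of all genes kept that were higher and the 10.9% that were lower.

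Lipe, the hormone-sensitive lipase of fat cells, was at 2.19 RPKM in Dnmt1+/+ and 0.280 RPKM in Dnmt1-/- MEFs, but its entry has the status LOWDATA and was not kept. Actb, often used as a reference gene, was at 1759 and 3779 RPKM, so a ratio of Pparg or Fabp4 to Actb would be smaller than the RPKM values alone give.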
